A study of Mus musculus with 2 samples.

Results

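The major histocompatibility complex (MHC) class I and class II genes were followed in hematopoietic stem cells (HSCs), the marrow cells that renew themselves and feed all blood lineages. The 10 genes were taken by symbol from 24421 gene symbols, by a rule that names them and uses no measured value, though earlier results of these data were known when it was set. There were 4 genes of class I (B2m, H2-K1, H2-D1 and Tap1) and 6 of class II (Cd74, H2-Aa, H2-Ab1, H2-Eb1, H2-DMa and Ciita). All 10 were present in the count tables, and all 10 passed the filter used here, a mean of at least 1 CPM (counts set to the same total in each library).

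RNA was sequenced from 1 WT library and 1 library labelled Ezh2 KO (the KO-labelled library), both from C57BL/6 mice. Ezh2 is the methyltransferase of Polycomb repressive complex 2, which places the repressive methyl mark on lysine 27 of histone H3. The WT genotype was Ezh2 +/+ CreERT+/- and the other was Ezh2 Δ/Δ CreERT+/-, so both groups carried Cre-ERT, a recombinase that acts once tamoxifen is given. Marrow of CD45.2 donors was moved into lethally irradiated CD45.1 recipients, which then received 100 µl of tamoxifen at 10 mg/ml on each of 5 days. After 1 month, cells positive for Sca-1, c-kit and CD150 and negative for lineage markers, CD34, CD48 and Flt3 were sorted. The promoter that drives Cre-ERT, the deleted part of Ezh2, the age of the mice and the number of animals behind each library are not given in the sources used here. The gate in the labels names no CD45 allele, so host cells that survived irradiation are not set apart by it.

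MHC class I molecules show peptides from inside the cell to CD8 T cells and are made by nearly all nucleated cells. A polymorphic heavy chain (H2-K1, H2-D1) pairs with beta-2 microglobulin (B2m), and the peptide reaches it through the TAP transporter (Tap1, Tap2). Class II molecules show peptides taken up from outside to CD4 T cells and are best known from dendritic cells, B cells and macrophages, and they are also found on blood stem and progenitor cells. Their alpha and beta chains assemble around the invariant chain (Cd74), the H2-DM molecule exchanges its remnant for a peptide, and Ciita is the coactivator on which transcription of these genes depends.

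The files held 5763118 gene counts for WT and 4157280 for the KO-labelled library. Each group was a single library, so no p-value is given and differences have no check against replicates. Counts were divided by size factors (1.17 and 0.858), and every ratio is log2 of the normalised count plus 1 in the KO-labelled library over that in WT. Its 95% interval covers counting error only and holds no spread between samples. PCR copies are not independent molecules, so the interval can be too narrow even for that error. The Ezh2 gene itself had 166 counts in WT and 129 in the KO-labelled library, a log2 ratio of 0.08 (95% counting interval -0.27 to 0.42). A count over the whole gene also takes reads from exons that the deletion may spare, so it does not check the label. Xist had 801 counts in WT and 4 in the KO-labelled library, and Ddx3y had 0 and 275, so the libraries also differed in sex, which cannot be told apart from genotype here. None of the 6 genes of the sort markers (Kit, Ly6a, Slamf1, Cd48, Cd34, Flt3) and none of 8 HSC markers differed by 2-fold. Few of all genes that passed the filter did (4.91% higher and 3.90% lower), so this says little about how alike the sorts were. The lowest HSC marker ratio was that of Fgd5 with 610 and 299 counts (-0.59, -0.79 to -0.39), close to the lowest MHC gene. The lowest sort marker ratio was that of Slamf1 (CD150) with 520 and 248 counts (-0.62), and the highest was that of Flt3 with 98 and 140 counts (0.95).

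Class I and class II differed in level. Summed over the 4 genes, class I took 0.946% (95% Wilson interval 0.938 to 0.954) of gene counts in WT and 0.982% (0.973 to 0.992) in the KO-labelled library. Summed over the 6 genes, class II took 0.261% (0.257 to 0.265) and 0.190% (0.186 to 0.195). The class II share was thus lower in the KO-labelled library, and the class I share was slightly higher.

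**Figure D1:**
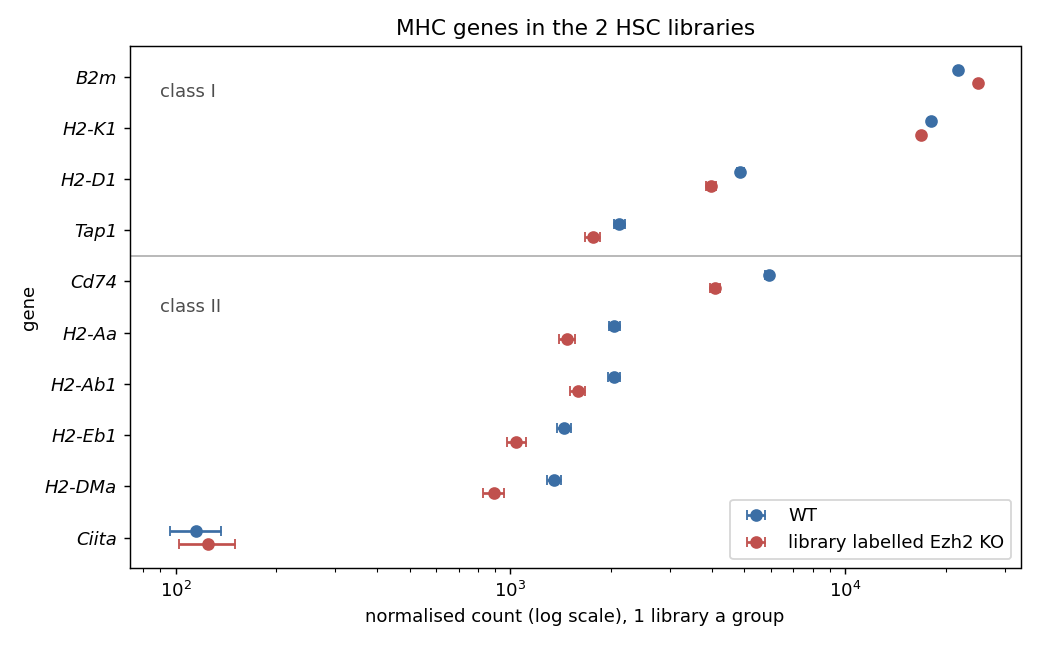
Normalised counts (log scale) of the 10 MHC genes in the WT library (blue) and the KO-labelled library (red), with 95% counting intervals as bars; where no bar shows, it is narrower than the point. B2m stands at 21702 and 24988 normalised counts at the top, and Ciita at 115 and 125 at the bottom.

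Per kilobase of exon, B2m had the highest level of the 10 genes, with 25234 normalised counts per kilobase in WT and 29055.5 in the KO-labelled library. H2-K1 followed at 6161 and 5738, Cd74 at 3523 and 2440.3, and H2-D1 at 1887 and 1546. H2-Ab1 (793 and 619), H2-Eb1 (744 and 536) and H2-Aa (539 and 389.7) came next. H2-DMa stood at 392 and 259, Tap1 at 387 and 322, and Ciita at 12.1 and 13.1 normalised counts per kilobase. In WT, the counting intervals of the levels per kilobase overlapped for the neighbours H2-Ab1 and H2-Eb1 and for H2-DMa and Tap1. In the KO-labelled library no neighbours overlapped, and Tap1 stood above H2-DMa, which was the one change of order. The length used was the union of all annotated exons of a gene, and the order depends on that choice. For H2-Aa it was 3798 bases, against 1128 in its longest coding transcript. For H2-Ab1 these lengths were 2568 and 1212 bases, so H2-Aa was the longer by exon union and the shorter by transcript.

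The class I genes differed little between the libraries and did not share a direction. B2m, the light chain common to class I molecules (chr2:122147686-122153083, plus strand, mm10), had 25289 counts in WT and 21443 in the KO-labelled library. After normalisation these were 21702 and 24988, a log2 ratio of 0.20 (0.18 to 0.23). B2m was therefore higher in the KO-labelled library, by 1.15-fold. H2-K1, the K heavy chain (chr17:33996017-34000347, minus strand), had 21092 and 14468 counts, or 18099.9 and 16859.7 normalised counts, with a log2 ratio of -0.10 (-0.13 to -0.07). H2-D1, the D heavy chain (chr17:35262730-35267499, plus strand), had 5671 and 3421 counts, or 4867 and 3987 normalised counts, with a log2 ratio of -0.29 (-0.35 to -0.23). Both heavy chains were thus lower in the KO-labelled library. Tap1, a subunit of the peptide transporter (chr17:34187553-34197225, plus strand), had 2468 and 1513 counts, or 2118 and 1763 normalised counts, with a log2 ratio of -0.26 (-0.36 to -0.17). Tap1 and H2-D1 were lower by 1.20-fold and 1.22-fold.

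The sum and the median of class I had opposite signs. The summed class I counts were 54520 in WT and 40845 in the KO-labelled library, with a log2 ratio of 0.02 (0.0063 to 0.04), whereas the median of the 4 ratios was -0.18. B2m decided the sign of the sum, which was -0.15 without it. Counts of B2m and the heavy chains within a library do not depend on the scaling between libraries. H2-K1 and H2-D1 together gave 1.06 counts per B2m count in WT and 0.834 in the KO-labelled library. The quotient of those ratios was 0.788 (95% counting interval 0.768 to 0.809). For single genes the quotient was 0.809 for H2-K1 over B2m, 0.711 for H2-D1 over B2m and 0.723 for Tap1 over B2m. H2-D1 over H2-K1 moved from 0.269 to 0.236, a quotient of 0.879 (0.839 to 0.922), so the D chain stood lower than the K chain as well.

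The promoters of the class I genes are shown for the letters they share, since the heavy chain genes are known for an enhancer that holds a kappa B motif and an interferon response motif. The windows are RefSeq bases on GRCm38.p6, the assembly that mm10 names, from 150 to 11 bases before the RefSeq start. They are chr17:34000358-34000497 (minus strand) for H2-K1 and chr2:122147537-122147676 (plus strand) for B2m. Capitals mark GGGGATTCC (kappa B), GAAANNGAA or GAANNGAAA (interferon response cores) and CCAAT, each on either strand.
H2-K1: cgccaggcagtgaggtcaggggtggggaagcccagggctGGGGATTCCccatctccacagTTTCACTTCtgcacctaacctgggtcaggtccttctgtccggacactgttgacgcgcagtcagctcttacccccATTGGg
B2m: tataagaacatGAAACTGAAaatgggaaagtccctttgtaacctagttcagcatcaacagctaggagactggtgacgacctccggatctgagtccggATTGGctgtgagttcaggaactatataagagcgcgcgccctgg

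The stretch from the kappa B motif to the interferon response core was 30 bases long in both heavy chain genes, at chr17:34000429-34000458 (minus strand) in H2-K1 and chr17:35262923-35262952 (plus strand) in H2-D1. It is set out for both genes, with the same motifs in capitals, because 29 of its 30 bases were identical.
H2-K1: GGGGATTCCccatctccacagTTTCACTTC
H2-D1: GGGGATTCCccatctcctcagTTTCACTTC

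Among 32851 RefSeq windows of 250 bases before a start, 0.213% held GGGGATTCC, 7.13% held GAAANNGAA, 6.31% held GAANNGAAA and 33.8% held CCAAT. B2m held an interferon response core from -139 to -131 and no GGGGATTCC in its window. These matches are letters in a window and were not tested as binding sites. RefSeq windows were at hand for 7 of the 10 genes, and H2-Ab1, Ciita and Cd74 were not among them.

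Of the 6 class II genes, 5 were lower in the KO-labelled library and the coactivator gene was not. H2-Aa, the alpha chain of the A molecule (chr17:34282744-34287823, minus strand), had 2384 counts in WT and 1270 in the KO-labelled library. These were 2046 and 1479.9 normalised counts, with a log2 ratio of -0.47 (-0.57 to -0.37), or 1.38-fold lower. H2-Ab1, its beta chain partner (chr17:34257689-34269419, plus strand), had 2373 and 1364 counts, or 2036 and 1589 normalised counts, with a log2 ratio of -0.36 (-0.45 to -0.26). Both chains of the A molecule were thus lower, with counting intervals that overlapped each other. H2-Eb1, the beta chain of the E molecule (chr17:34305867-34316674, plus strand), had 1685 and 895 counts, or 1446 and 1043 normalised counts, with a log2 ratio of -0.47 (-0.59 to -0.35). The alpha chain of the E molecule is not made in C57BL/6 mice, and the pseudogene symbol H2-Ea-ps was listed at 0 in both libraries. H2-DMa, the alpha chain of the peptide editor (chr17:34119541-34139101, plus strand), had 1574 and 765 counts, or 1351 and 891 normalised counts, with a log2 ratio of -0.60 (-0.73 to -0.47). This was the lowest ratio of the 10 genes, at 1.51-fold lower.

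The promoters of H2-Aa and H2-Eb1 are shown because class II promoters are known for the Y box, an inverted CCAAT that the NF-Y factor binds, beside the X box read by the RFX factors. The windows run from 150 to 11 bases before the RefSeq start on GRCm38.p6, at chr17:34287834-34287973 (minus strand) for H2-Aa and chr17:34305717-34305856 (plus strand) for H2-Eb1. Capitals mark CTGATTGG (the Y box letters, which contain the inverted CCAAT), a further CCAAT and TGACGTCA (a cyclic AMP response element), each searched on both strands.
H2-Aa: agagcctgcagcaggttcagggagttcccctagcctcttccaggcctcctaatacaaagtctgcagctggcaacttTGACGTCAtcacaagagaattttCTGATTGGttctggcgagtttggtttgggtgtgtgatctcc
H2-Eb1: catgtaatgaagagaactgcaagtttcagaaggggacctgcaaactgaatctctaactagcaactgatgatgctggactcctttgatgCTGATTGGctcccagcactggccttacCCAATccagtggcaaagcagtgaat

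CTGATTGG lay from -51 to -44 in H2-Aa and from -62 to -55 in H2-Eb1, and 3.83% of all windows held it. On the other strand it also lay in the windows of the class I genes H2-D1 (-53 to -46) and Tap1 (-222 to -215), so these letters were not particular to class II. TGACGTCA lay from -74 to -67 in H2-Aa and in none of the windows of the other 6 members searched, and 1.55% of all windows held it. Of the RefSeq entries for H2-DMa, one held none of the searched letters in its window and the other held CCAAT.

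The invariant chain and the coactivator stood at the ends of the class II range of levels. Cd74, the chaperone of the class II chains, lies apart from the MHC (chr18:60803848-60812652, plus strand) and had 6892 counts in WT and 3516 in the KO-labelled library. Its normalised counts were 5914 and 4097, with a log2 ratio of -0.53 (-0.59 to -0.47), or 1.44-fold lower. Ciita (chr16:10480059-10528418, plus strand) had 134 and 107 counts, or 115 and 125 normalised counts, with a log2 ratio of 0.12 (-0.26 to 0.49). A difference in Ciita was not detectable at this depth. The bounds of its interval lay on both sides of 0.

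Summed over the 6 genes, class II had 15042 counts in WT and 7917 in the KO-labelled library, with a log2 ratio of -0.48 (-0.52 to -0.45) or 1.40-fold lower. The median of the 6 ratios was -0.47, and 5 of 6 were below 0. Class II over class I was 0.276 (0.271 to 0.281) in WT and 0.194 (0.189 to 0.199) in the KO-labelled library, a quotient of 0.703 (0.682 to 0.724). With Cd74 and B2m both left out, that quotient was 0.814 (0.781 to 0.848), so its size rested in part on the most abundant gene of each class. In bulk RNA, fewer cells of a kind and less RNA per cell cannot be told apart.

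**Figure D2:**
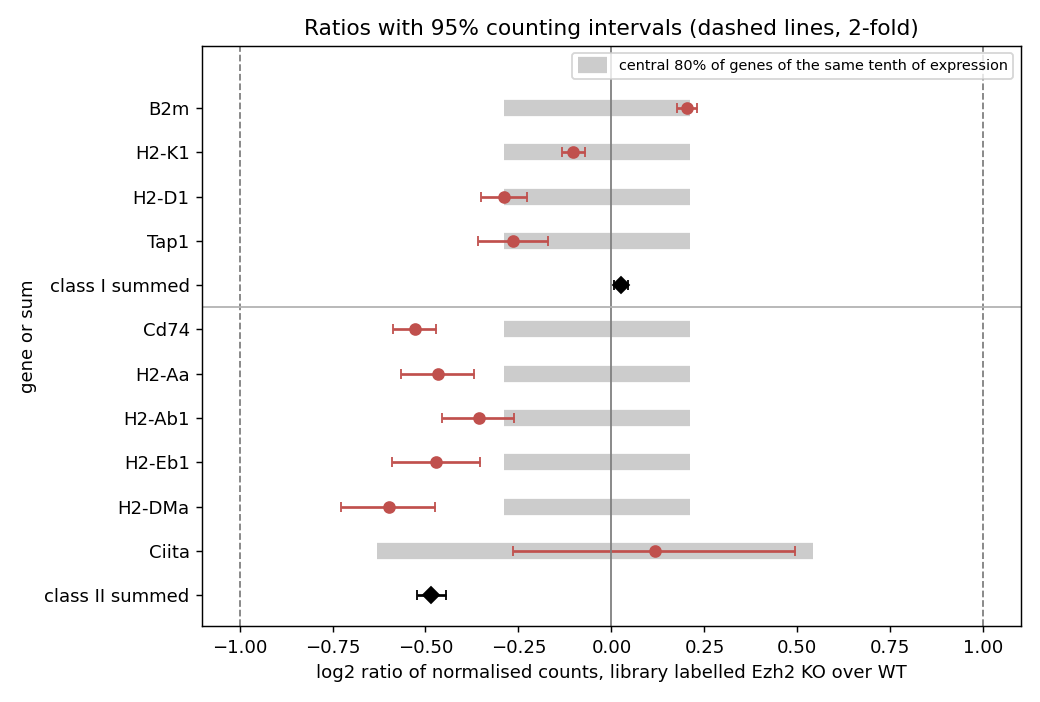
Log2 ratio of normalised counts, KO-labelled library over WT, for each gene (red points) and for the sum of each class (black diamonds), with 95% counting intervals; grey bands hold the central 80% of genes of like expression and dashed lines mark 2-fold. Cd74, H2-Aa, H2-Ab1, H2-Eb1 and H2-DMa lie left of the band, B2m, H2-K1, Tap1 and Ciita lie within it, and H2-D1 lies at its lower edge.

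Read against all genes, these differences were small in size. Of 12588 genes tested, 4.91% were at least 2-fold higher and 3.90% at least 2-fold lower in the KO-labelled library, and 0 of the 10 MHC genes were among either. At 1.5-fold, 10.0% of genes were lower, among them 1 class II gene (H2-DMa) and 0 class I genes. Counting error alone is a weak yardstick at this depth. Of 2519 genes with a mean of at least 100 CPM, 23.3% had an interval wholly above 0 and 29.3% wholly below it. B2m was in the first set, and 3 of 4 class I and 5 of 5 class II genes of that level were in the second. Ciita was below that level.

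A closer yardstick is the spread of genes of like expression. Except for Ciita, the MHC genes were among the 1259 most highly expressed of the genes tested, whose median log2 ratio was -0.02 and whose central 80% ran from -0.29 to 0.21. Of those genes, 1.51% had a lower ratio than H2-DMa, 2.54% than Cd74, 3.34% than H2-Eb1, 3.49% than H2-Aa and 6.35% than H2-Ab1. The same share was 10.2% for H2-D1, 12.5% for Tap1, 31.6% for H2-K1 and 88.4% for B2m. Thus 5 class II genes lay in the lower end of the distribution, with B2m towards its upper end. Ciita was placed among 1258 less abundant genes, of which 60.4% had a lower ratio.

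Within class II, no difference in proportion to the alpha chain was detectable for 4 of the genes. Cd74 over H2-Aa was 2.89 in WT and 2.77 in the KO-labelled library, a quotient of 0.958 (0.885 to 1.04). The quotient was 1.08 (0.981 to 1.19) for H2-Ab1 over H2-Aa, 0.997 (0.897 to 1.11) for H2-Eb1 over H2-Aa and 0.912 (0.817 to 1.02) for H2-DMa over H2-Aa. These intervals all held 1, and each still allowed a difference of the size of its bounds. Ciita over H2-Aa was 0.0562 in WT and 0.0843 in the KO-labelled library, a quotient of 1.499 (1.15 to 1.95), so Ciita stood higher against the alpha chain beyond counting error. The partners of the peptide editor also parted. H2-DMa over H2-DMb1, its beta chain gene, was 3.19 in WT and 2.18 in the KO-labelled library, a quotient of 0.684 (0.582 to 0.804).

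**Figure D3:**
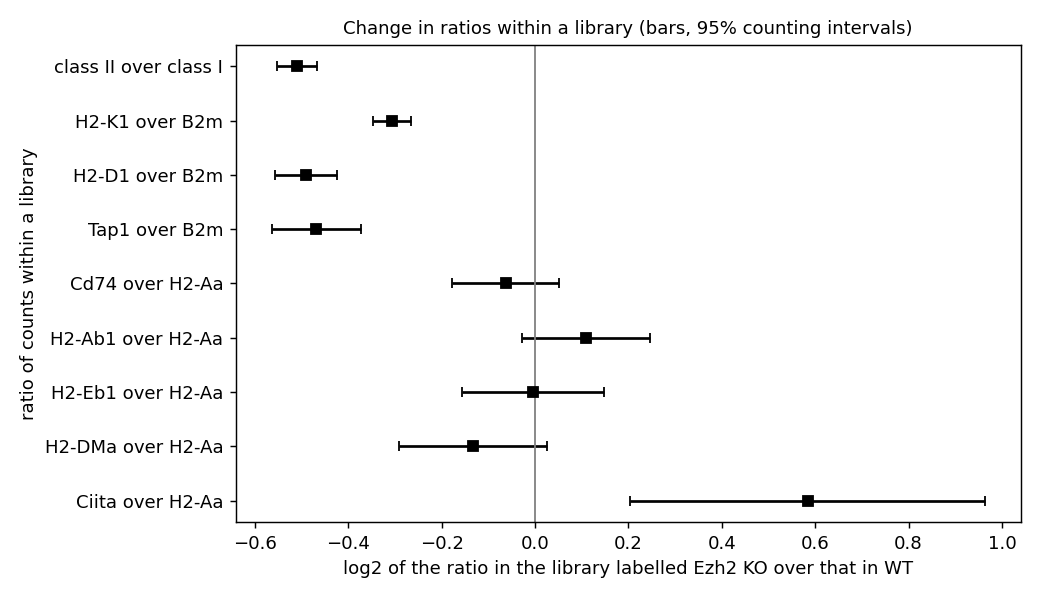
Log2 of the ratio of counts in the KO-labelled library over the same ratio in WT, with 95% counting intervals. Ratios over B2m and class II over class I lie below 0, the ratios of Cd74, H2-Ab1, H2-Eb1 and H2-DMa to H2-Aa hold 0 in their intervals, and Ciita over H2-Aa lies above 0 at 0.58.

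Other class II molecules were sparse. Of 4 with enough counts to be tested, H2-DMb1 had 494 and 351 counts (log2 ratio -0.05, -0.25 to 0.15), H2-Oa had 146 and 111 (0.05) and H2-Ob had 37 and 20 (-0.43). H2-O is the inhibitor of H2-DM. H2-DMb2, the other beta chain gene of H2-DM, had 19 counts in WT and 3 in the KO-labelled library, a log2 ratio of -1.94 with an interval from -4.62 to -0.46. The H2-DMb1 and H2-DMb2 values are uncertain as single genes, since 23.1% and 25.5% of their 61-base windows (the number of sequencing cycles) occur in each other or in another gene. H2-Eb2 had 9 counts and 1 count and was not tested.

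The genes that supply and load class I peptide did not move together. All 12 listed were tested, 0 were past 2-fold, 5 were above 0 and 7 below, and their median log2 ratio was -0.02 against -0.0032 for all genes tested. Tapbp (tapasin), which bridges TAP and the heavy chain, had 4526 and 3570 counts (0.10, 0.04 to 0.16). Calr, a chaperone of the loading complex, had 4074 and 2933 counts (-0.03, -0.10 to 0.04). These abundant loading genes thus differed little between the libraries. Psmb8, a catalytic subunit of the immunoproteasome that cuts class I peptides, had 3293 and 1883 counts and the lowest ratio of the list (-0.36, -0.45 to -0.28). Tap2, the partner of Tap1, had 2126 and 1559 counts, and Tap1 over Tap2 was 1.16 in WT and 0.970 in the KO-labelled library, a quotient of 0.836 (0.763 to 0.916). Psmb8 over Psmb9, another immunoproteasome subunit, was 2.76 and 2.19, a quotient of 0.794 (0.716 to 0.882). In both pairs the first gene stood lower against its partner in the KO-labelled library. The pairings of Tap1 with Tap2, Psmb8 with Psmb9 and H2-DMa with H2-DMb1 were picked with their values in view.

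Non-classical class I genes showed no shared direction. Of 23 listed, 11 were tested, with 0 past 2-fold higher, 1 lower, 7 above 0 and 4 below, and a median of 0.04. Over all genes tested, 3.90% were at least 2-fold lower. H2-T23, which encodes the Qa-1 molecule that presents leader peptides to NK cell receptors, had 3270 and 2839 counts (0.24, 0.16 to 0.31). H2-Q4 had 937 and 675 counts (-0.03) and Fcgrt, the neonatal Fc receptor, had 690 and 511 (0.0081). Hfe, the class I-like regulator of iron uptake, was the gene past 2-fold, with 97 counts in WT and 30 in the KO-labelled library (-1.23, -1.89 to -0.65). Among the H2-Q genes, H2-Q1, H2-Q6, H2-Q7 and H2-Q8 were listed at 0 in both libraries, where 3 counts would stand for 0.521 CPM in WT and 0.722 CPM in the KO-labelled library.

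Similar sequence limits how heavy chain reads can be assigned. Of the 61-base windows of the longest coding transcript of H2-D1, 9.40% also occurred in transcripts of other genes, with H2-Q1 and H2-Q7 first among them. The share was 3.72% for H2-K1, 21.4% for H2-T23 and 29.2% for H2-Q4. It was 0% for B2m, Cd74, H2-Aa, H2-Ab1, H2-Eb1 and H2-DMa, so the class II chains and B2m did not carry this limit. For Tap1 the share was 5.74%, with Psmb9 first among the genes that held such windows. Tap1 (from 34187553, plus strand) and Psmb9 (to 34187764, minus strand) overlap on chromosome 17, and windows were matched on either strand. Shared windows of this pair can thus be the same bases of the genome rather than similar sequence. Reads with more than 1 alignment took 10.7% of entries in WT and 12.3% in the KO-labelled library and were in no gene count, and their part in the heavy chain values was not tested.

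The genes that handle class II peptide and the surface molecule were mixed. Of 8 tested, 0 were past 2-fold higher, 2 lower, 3 above 0 and 5 below, with a median of -0.33. Over all genes tested, 3.90% were at least 2-fold lower and the median was -0.0032. Ctsd (cathepsin D) had 3273 and 2413 counts (0.0016), Ctsb (cathepsin B) 3005 and 1752 (-0.34) and Ctsl (cathepsin L) 543 and 509 (0.35). The 3 most abundant proteases thus had ratios on both sides of 0. Lgmn, a protease that can start invariant chain removal, had 32 and 6 counts (-1.83, -3.52 to -0.70). March1, a ubiquitin ligase that takes class II off the surface, had 11 and 3 counts (-1.22, -3.91 to 0.49), so its interval held 0.

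Factors known to act at MHC promoters lay close to 0. Of 10 tested, 0 were past 2-fold, 5 were above 0 and 5 below, with a median of -0.02. Nlrc5, the class I counterpart of Ciita, had 554 and 332 counts (-0.30, -0.50 to -0.10). Rfx5, the DNA-binding subunit that reads the X box, had 556 and 358 counts (-0.19, -0.39 to 0.00051). Nlrc5 thus stood lower in the KO-labelled library beyond counting error, and Rfx5 reached 0 at its upper bound. Rela and Nfkb1, which encode NF-kappa B subunits, had 1632 and 1286 counts (0.10) and 1006 and 777 counts (0.07).

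Interferon gamma is the best known inducer of both classes through kinases such as Jak1 and factors such as Irf1. Ifng itself was listed at 0 in both libraries, and 9 of 10 listed genes of the pathway were tested, with 0 past 2-fold, 4 above 0, 5 below and a median of -0.02. Jak1 had 3548 and 2524 counts (-0.05) and Irf1 had 1454 and 1099 (0.04). Neither differed by as much as H2-Ab1. A further list held 7 genes of co-stimulation or co-inhibition, signals that professional antigen-presenting cells pair with class II. Of these, 5 were tested, with 0 past 2-fold higher, 1 lower (Cd83, 16 and 3 counts, -1.71, -4.39 to -0.17) and a median of -0.31. Over all genes tested, 3.90% were at least 2-fold lower. Cd274 (PD-L1) had 622 and 370 counts (-0.31) and Pdcd1lg2 (PD-L2) 54 and 70 (0.80), both ligands of the inhibitory receptor PD-1. Cd86 had 63 and 65 counts (0.48), while Cd40 was listed at 0 in both.

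**Figure D4:**
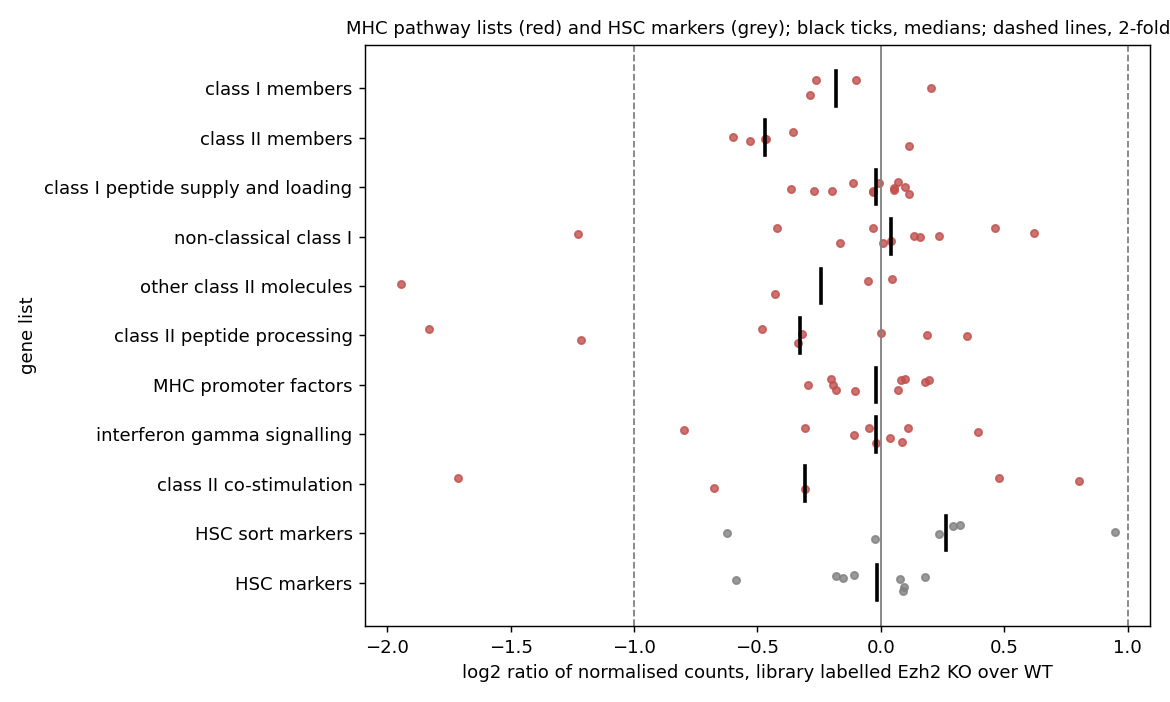
Log2 ratios of tested genes, KO-labelled library over WT, by list (red, MHC pathway lists; grey, HSC markers); black ticks are medians and dashed lines mark 2-fold. The class II genes have a median of -0.47, whereas the lists of class I loading, promoter factors and interferon gamma signalling have medians of -0.02.

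Of the 10 genes, 4 of class II and 3 of class I lie between H2-K1 and H2-D1 on chromosome 17 (33996017 to 35267499), an interval of 1271 kb. Of its 61 tested genes, 54 were not members, with a median log2 ratio of -0.0075, 26 above 0 and 28 below. Of those 54 genes, 10 had a ratio at or below that of H2-Ab1, among them the class II genes H2-DMb2 and H2-Ob, and 18.9% of all genes tested had a lower ratio than H2-Ab1. The 4 class II genes span 186 kb, and 8 tested genes lie within that span (Brd2, H2-DMb2, H2-DMb1, Tap1, Psmb9, Psmb8, Tap2 and H2-Ob), with a median of -0.16 and a range from -1.94 for H2-DMb2 to 0.0054 for Brd2. These 8 genes all start between H2-DMa and H2-Ab1, and no tested gene starts among H2-Ab1, H2-Aa and H2-Eb1. Of the 8, Brd2, Tap2, Psmb9 and H2-DMb1 stood near 0. Tap1 (-0.26), Psmb8 (-0.36) and the sparse H2-DMb2 stood lower. H2-Ob (-0.43) had 37 and 20 counts and an interval that held 0 (-1.31 to 0.38).

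**Figure D5:**
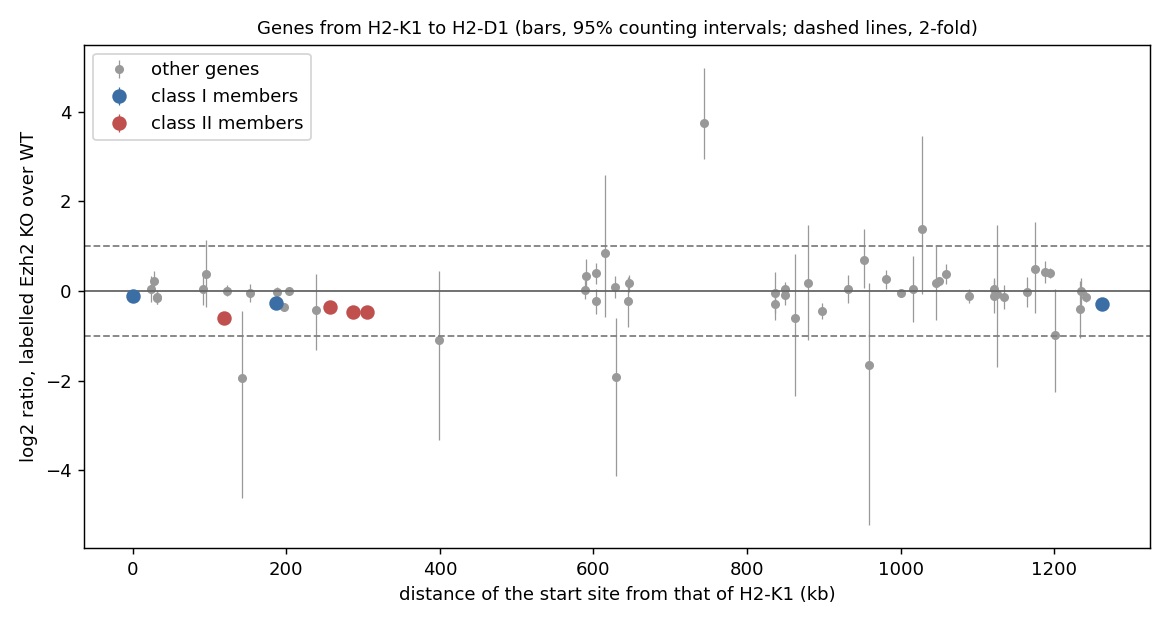
Log2 ratio, KO-labelled library over WT, of tested genes by distance of their start site from that of H2-K1 (kb), with 95% counting intervals as bars; blue, class I members; red, class II members; grey, other genes. H2-DMa lies at 119 kb and H2-Ab1, H2-Aa and H2-Eb1 at 257, 287 and 306 kb, all below 0, while H2-K1 at 0 kb and H2-D1 at 1262 kb mark the ends.

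Cells other than HSCs can bring class II RNA into a sort, so markers of such cells were read beside the class II values. Among all genes tested, 4.91% were at least 2-fold higher and 3.90% at least 2-fold lower in the KO-labelled library. Of 6 tested B cell markers, 5 were at least 2-fold higher. The list summed to 243 normalised counts in WT and 499.9 in the KO-labelled library, of which Cd79b gave 215 and 267. Vpreb3, Igll1 and Dntt were at 0 in WT, so they passed the filter through the KO-labelled library alone and could only be called higher. Ms4a1 (CD20) was at 0 in both. Of 3 tested dendritic cell markers 1 was 2-fold higher, with sums of 146 and 269, Itgax (CD11c) at 0 and 7 counts, and Cd209a and Batf3 at 0 in both. The dendritic cell sum was mostly Flt3, a gene of the sort as well, at 84.1 and 163 normalised counts. Of 9 tested monocyte and macrophage markers, 4 were 2-fold higher and 1 lower, with sums of 251 and 337, Cx3cr1 at 0 in both and Csf1r, the lower one, at 24 and 5 counts (-1.66, -3.57 to -0.40). Of 4 tested T and NK cell markers, 2 were 2-fold higher and 1 lower, with sums of 203 and 196 and Cd3d, Cd3e and Gzma at 0 in both. Eosinophil markers (7 of 7 tested 2-fold higher) summed to 10.3 and 3787 normalised counts, and neutrophil markers (6 of 9) to 6939.8 and 15722. Of the eosinophil markers, 6 were at 0 in WT, as were Cd3g, Il2rb and Adgre1 of the lists before. They passed the filter through the KO-labelled library alone and could only be called higher. The eosinophil markers Ccr3 and Siglecf, each with 5 and 4 counts, were not tested. Of 5 endothelial markers 0 were past 2-fold, with sums of 517 and 681 and Cdh5 at 0 in both. The part of these cells in the MHC values was not tested.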

How the data were processed

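RNA-seq counts of 2 libraries of sorted mouse HSCs were analysed, 1 a group, grouped by the genotype in the labels. The authors deposited raw counts per gene symbol. Per the labels and the study's methods, reads were aligned to mm10 with TopHat2 2.0.13 and Bowtie2 2.1.0 and the iGenomes annotation. StringTie is named as the counter, but the 5 closing entries of each file bear the names that htseq-count writes, and the strand setting is not given in the sources used here. Those 5 entries name no gene and were kept out of totals and tests. Of all entries, those with no feature took 44.9% in WT and 44.1% in the KO-labelled library, ambiguous ones 0.532% and 0.539%, and those with more than 1 alignment 10.7% and 12.3%.

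Counts were divided by DESeq2 1.42.0 size factors (R 4.3.3), the tool of the study's methods. No test of DESeq2 or edgeR was fitted, since 1 library a group gives no spread. Ratios used a pseudocount of 1 and genes with a mean of at least 1 CPM. Their intervals are exact (Clopper-Pearson) 95% intervals of the binomial share of both counts, shares of all gene counts have Wilson intervals, and quotients of ratios have log odds intervals. Past 2-fold counted as called. Positions and exon lengths (the union of all annotated exons of a gene) were from GENCODE M21 (GRCm38), promoters from RefSeq (GRCm38.p6). edgeR 4.0.16 gave TMM and upper-quartile factors, and pandas 2.3.3, scipy 1.17.1, matplotlib 3.10.9 and numpy 2.4.6 under Python 3.11.15 the rest. The procedure was run on simulated counts that held counting error only, with planted differences larger than that of any MHC gene. The simulation held no spread between libraries, so it checks the code and not the differences reported here.

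The members and the 18 gene lists were chosen with earlier results of these data known. All 10 members were named, with, of the pathway lists, genes past 2-fold, the 3 with most counts, Nlrc5 and Rfx5. Values of some listed genes are not reported here. The motif searches, shared windows, chromosome 17 interval and ratios that involve genes outside the members were added after the files were seen. Alternatives covered scaling, depth, pseudocount, filter, fold and left-out genes.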

Additional observations from a re-analysis of the deposited data

Results flagged for a closer look

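Reads with more than 1 alignment, which are outside the gene counts, took 12.3% of entries (95% Wilson interval 12.25 to 12.29) in the KO-labelled library and 10.7% (10.73 to 10.77) in WT. This drew attention as a signal in data that no gene comparison uses and that stood above its level in the control library. With 1 library a group, these intervals hold no spread between samples. No group had enough libraries for a search for outlying samples.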

How the results depend on the processing

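Over 6 alternatives for each of the 10 MHC genes (4 of scaling or depth and 2 of pseudocount), 0 of 60 values changed sign and 0 genes passed 2-fold. The class II sum (-0.48) stayed within its counting interval under each alternative tried, and moved most without Cd74, to -0.447 (interval -0.524 to -0.445). The class II median (-0.47) was -0.38 as a mean. The medians of the single-gene bounds were -0.58 and -0.36, which are not a counting interval of the median itself. The class I median (-0.18) was -0.11 as a mean and -0.0305 without H2-K1 and H2-D1. The class I sum (0.02) was 0.05 by total-count or upper-quartile scaling and with the deeper library thinned (0.0546, 0.0485 and 0.0494), and -0.15 without B2m. The number of all genes past 2-fold (1109, 618 higher and 491 lower) was 2502 with no filter (1404 and 1098), 211 at a mean of at least 10 CPM (96 and 115), 2582 at 1.5-fold (1321 and 1261) and 497 at 3-fold (290 and 207). Higher calls were thus 55.7% of all calls, and 45.5% at 10 CPM. Total-count scaling put the median of all genes at 0.03. No paired analysis was possible because there was a single library on each side, and for the same reason none could be left out. Depth limits Ciita most, whose ratio ran from 0.10 to 0.15 over the alternatives inside a far wider counting interval.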

Other observations

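In the interval between H2-K1 and H2-D1, 6 genes that are not members were past 2-fold and were named after their values were seen. C4b, which encodes complement component 4, had 10 counts in WT and 109 in the KO-labelled library, a log2 ratio of 3.74 (2.95 to 4.99), the highest of the interval. Its near copy C4a shares sequence with it, and how reads were split between them was not tested. Sapcd1 had 5 and 11 counts (1.39, -0.06 to 3.46). On the lower side were H2-DMb2, BC051142 with 13 and 4 counts (-1.10, -3.33 to 0.44), Prrt1 with 24 and 4 (-1.93, -4.13 to -0.60) and Hspa1b, a heat shock protein gene, with 11 and 2 (-1.65, -5.23 to 0.18). Also chosen with values in view, Socs1, the feedback inhibitor of interferon gamma signalling, had 223 and 94 counts (-0.80, -1.17 to -0.45), the lowest ratio of its list. Cd1d1, which presents lipids to NKT cells, had 193 and 196 counts (0.46, 0.17 to 0.76). Of 42 symbols that begin with H2-, 17 were listed at 0 in both libraries and 19 were tested.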
